A study of Mus musculus with 9 samples.

Results

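The genes described here encode Janus kinases (Jak1, Jak2 and Tyk2) and signal transducers and activators of transcription (Stat2, Stat3, Stat4, Stat5a, Stat5b and Stat6). They were identified by gene symbol, and these 9 genes were followed among 19505 named genes on 8 Clariom S expression arrays of Pan02 cells, a mouse pancreatic ductal adenocarcinoma line. Each of the 9 genes had 1 probe set. Values are log2 signals, so a difference of 1 is a doubling, and signals of different genes were not set against each other because every probe set has its own response.

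Pan02 cells had been transduced with lentivirus to give 4 lines. Pan02OE carried an NLRX1 open reading frame and Pan02OE-CTL the control particles of that system, whereas Pan02KD carried a shRNA directed at NLRX1 and Pan02KD-CTL a scrambled shRNA. All 4 lines were selected with puromycin and carried a GFP tag, each line is a single transduced population, and the knockdown rests on 1 shRNA sequence. RNA of each line was hybridized once from normal medium and once after 24 hours in medium with a low dose of H2O2, which gave 2 arrays per line and no repeat of any line in the same medium.

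NLRX1 is a mitochondrial member of the NOD-like receptor family, and its signal was checked first. Nlrx1 read 17.10 and 17.31 in Pan02OE against 6.89 and 6.90 in Pan02OE-CTL. In the arrays labelled Pan02KD it read 6.68 and 6.56, against 5.96 and 6.40 in Pan02KD-CTL. Nlrx1 was therefore not lower in the arrays labelled Pan02KD, and outside Pan02OE every value lay below 7.48, the highest of 23 background probe sets on these arrays, where a value is only an upper bound. Such values cannot show whether Nlrx1 RNA was lowered. The paper checked transduction by GFP and by western blot for NLRX1 protein, and reports that the shRNA kept was the only one that lowered NLRX1 effectively. Of 10 epithelial markers, 7 exceeded that level on at least 1 array, among them Krt8, Krt18 and Krt19, whereas Epcam, Cldn4 and Cldn7 did not. Of 9 lymphocyte markers, Cd4 was above it, with line means from 7.60 to 7.86, and the other 8, among them Ptprc and Cd3e, were not. All 6 endothelial markers stayed below it.

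Cytokine receptors of this class have no kinase activity of their own. A Janus kinase bound to the receptor tail phosphorylates the receptor once a ligand has joined its chains, STAT proteins dock there, are phosphorylated, dimerize and enter the nucleus, and SOCS proteins made in response shut the receptor down. IL-6 family cytokines act mainly through STAT3, growth hormone and the GM-CSF family through STAT5, IL-4 and IL-13 through STAT6, IL-12 through STAT4, and type I interferons through a complex of STAT2 with IRF9. In pancreatic cancer the IL-6, JAK and STAT3 branch is known for its part in tumor inflammation. The arrays measured mRNA only and carry no information on phosphorylation.

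STAT dimers bind a palindrome known as GAS, and the complex of STAT2 with IRF9 binds the interferon-stimulated response element, ISRE. The 250 bases before each annotated start were taken from RefSeq (GRCm38.p6), where all 9 genes had an entry, and searched on both strands for TTCNNNGAA as GAS and GAAANNGAAA as ISRE, neither of which contains the other. A GAS match was present in 7.02% of all 32851 promoters and an ISRE match in 2.98%. None of the 9 genes had a GAS match, and Stat2 and Stat4 had an ISRE match. The first sequence below is the upstream stretch of Jak2 (chr19:29251553-29251802, plus strand), shown because Jak2 had the largest differences of the 9 genes. It holds neither motif, and 80.8% of its bases are G or C. The others are stretches around each match, with the match in capitals, of Stat2 (chr10:128270256-128270305, plus strand, ISRE), of the interferon-induced gene Ifit3 (chr19:34583353-34583436, plus strand, a pair of ISRE matches), and of Socs3 (chr11:117969492-117969540, minus strand), Ifit2 (chr19:34550444-34550481, plus strand), Eif2ak2 (chr17:78882722-78882770, minus strand) and Ifnar2 (chr16:91372549-91372597, plus strand), all GAS. These are pathway genes whose values are given further on. A match of letters is not a measured binding site.
Jak2: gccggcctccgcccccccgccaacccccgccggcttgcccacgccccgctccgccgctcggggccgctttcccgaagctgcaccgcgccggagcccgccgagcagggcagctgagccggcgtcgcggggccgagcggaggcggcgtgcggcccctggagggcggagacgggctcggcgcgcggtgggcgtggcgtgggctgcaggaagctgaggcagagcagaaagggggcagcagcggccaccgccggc
Stat2: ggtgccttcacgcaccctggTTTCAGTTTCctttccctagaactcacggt
Ifit3: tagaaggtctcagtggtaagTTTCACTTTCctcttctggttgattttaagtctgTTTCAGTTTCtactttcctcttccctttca
Socs3: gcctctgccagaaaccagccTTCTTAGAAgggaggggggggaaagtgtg
Ifit2: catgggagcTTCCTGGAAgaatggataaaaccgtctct
Eif2ak2: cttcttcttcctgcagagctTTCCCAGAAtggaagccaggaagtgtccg
Ifnar2: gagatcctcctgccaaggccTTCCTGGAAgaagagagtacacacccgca

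Jak2 encodes the kinase of the receptors for growth hormone, erythropoietin, GM-CSF and interferon gamma, and it also serves the IL-6 family. Its signal was 12.98 in normal medium and 12.78 in H2O2 medium in Pan02OE, and 15.19 and 15.40 in Pan02OE-CTL. In the arrays labelled Pan02KD it was 14.09 and 14.07, and in Pan02KD-CTL it was 12.07 and 11.57. Both arrays of Pan02OE were thus below both arrays of its control, and both arrays labelled Pan02KD were above both arrays of theirs. Every line kept to a range of its own, and no arrays of different lines overlapped.

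Jak2 fell in Pan02OE against Pan02OE-CTL by 2.42 on the log2 scale (SE 0.19, 95% interval -2.84 to -1.99, 5.34-fold, limma adjusted p = 4.3e-05). It rose in the arrays labelled Pan02KD against Pan02KD-CTL by 2.26 (SE 0.19, 95% interval 1.83 to 2.69, 4.78-fold, limma adjusted p = 0.000107). The difference between these comparisons, which share no array, was itself tested and amounted to -4.67 (SE 0.27, limma adjusted p = 4.17e-06). These p-values, adjusted over all 19505 genes, measure the spread between the arrays of a line in different media, because nothing in the labels gives separate cultures. In a bulk extract, fewer cells that express a gene and less of its RNA per cell cannot be told apart.

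Of the 9 genes, 1 was called at an adjusted p under 0.05 in each of these comparisons, and it was Jak2 each time. The share called among all genes was 16.5% for Pan02OE against Pan02OE-CTL, 13.6% for the arrays labelled Pan02KD against Pan02KD-CTL and 22.3% for the difference of both. Of the 9 genes, 8 were above background. Among all 8787 genes above background, 13.3% rose and 18.1% fell in the first comparison. In the second 14.8% rose and 11.5% fell, and in the difference 18.3% rose and 23.3% fell. A count of 1 of 9 is not above the shares called, so it says nothing particular about the JAK and STAT genes as a set. The median difference of the 9 genes was -0.15 in Pan02OE (0.04 over all genes) and 0.29 in the arrays labelled Pan02KD (0.00 over all genes).

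**Figure D1:**
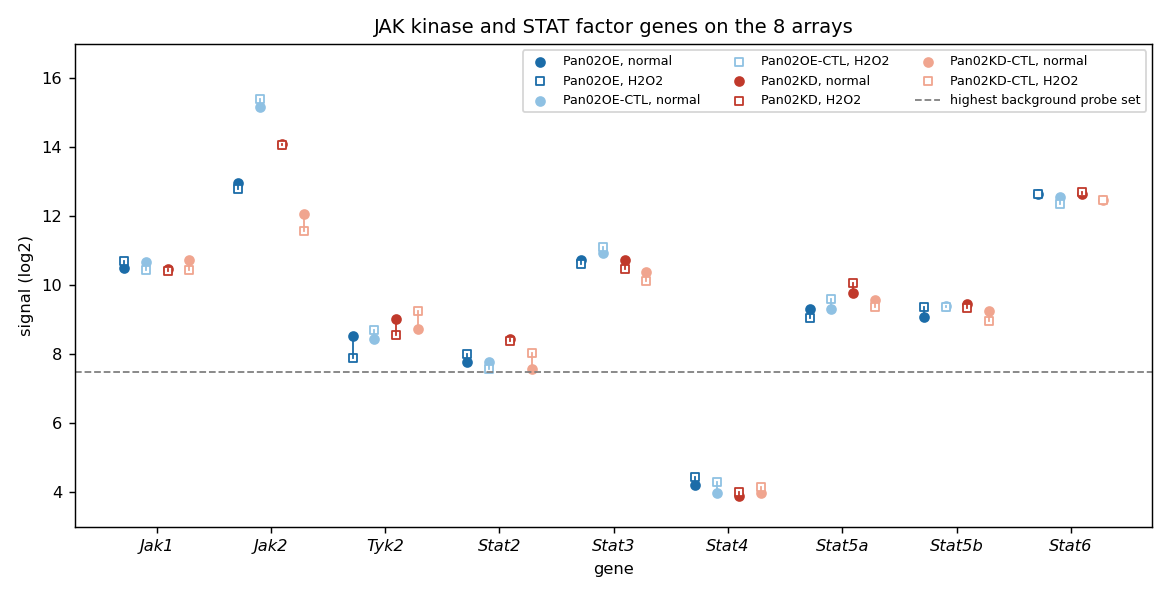
Log2 signal of the 9 genes (y axis) by gene (x axis), with 1 filled circle for the normal medium array and 1 open square for the H2O2 array of each line, joined by a line, and the highest background probe set at 7.48 as a dashed line. Jak2 separates the 4 lines, from 15.40 in Pan02OE-CTL down to 11.57 in Pan02KD-CTL, whereas all 8 Stat4 values lie below the dashed line.

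Ordered by level, Jak2 ran from Pan02OE-CTL through the arrays labelled Pan02KD and Pan02OE to Pan02KD-CTL. Each step in this order was called, with 1.22 between Pan02OE-CTL and the arrays labelled Pan02KD (limma adjusted p = 0.00466), 1.20 from there to Pan02OE (limma adjusted p = 0.00214) and 1.06 from Pan02OE to Pan02KD-CTL (limma adjusted p = 0.0123). Among all genes, the shares called in these comparisons were 7.63%, 18.3% and 6.37%. The first step lost its call without the normal medium array labelled Pan02KD (-1.14, limma adjusted p = 0.0652) or without the H2O2 array of Pan02OE-CTL (-0.99, limma adjusted p = 0.0691). The last step lost its call without the normal medium array (1.01, limma adjusted p = 0.0895) or the H2O2 array of Pan02OE (1.11, limma adjusted p = 0.0817) and without the H2O2 array of Pan02KD-CTL (0.80, limma adjusted p = 0.103). Each step of this order pairs a line of the open reading frame system with a line of the shRNA system.

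The control lines, neither of which was meant to alter NLRX1, differed in Jak2 by more than either modified line differed from its control. From Pan02OE-CTL to Pan02KD-CTL it fell by 3.48 (SE 0.19, 95% interval -3.90 to -3.05, 11.1-fold, limma adjusted p = 3.8e-06). Pan02OE-CTL and Pan02KD-CTL thus marked the top and the bottom of the Jak2 order, and both modified lines lay between them. This comparison shares the Pan02OE-CTL arrays with the overexpression comparison and the Pan02KD-CTL arrays with the knockdown comparison. Of all genes, 16.9% were called between the control lines, and 2 of the 9 genes were, Jak2 and Stat3.

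Jak1 encodes the kinase that serves the IL-6 family, the interferons and the receptors built on the common gamma chain. Its values ran from 10.41, in the H2O2 array labelled Pan02KD, to 10.75, in the normal medium array of Pan02KD-CTL. This span of all 8 arrays was below 0.4 on the log2 scale, and the lines overlapped. Jak1 differed by 0.04 in Pan02OE against its control (95% interval -0.34 to 0.43, limma adjusted p = 0.909) and by -0.15 in the arrays labelled Pan02KD (95% interval -0.54 to 0.24, limma adjusted p = 0.661).

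Tyk2 encodes the kinase that partners the interferon and IL-12 family receptors. Tyk2 read 8.54 and 7.89 in Pan02OE, 8.44 and 8.71 in Pan02OE-CTL, 9.03 and 8.56 in the arrays labelled Pan02KD, and 8.72 and 9.26 in Pan02KD-CTL. The arrays of the modified lines and of their controls overlapped in the second pair, and in the first pair the Pan02OE array from normal medium lay between the controls. Its differences of -0.36 (SE 0.27) and -0.20 (SE 0.27) did not pass the test (limma adjusted p = 0.463 and 0.723). The direction of Tyk2 turned with the medium in both comparisons. In normal medium it was 0.10 higher in Pan02OE and 0.31 higher in the array labelled Pan02KD, and in H2O2 medium it was 0.82 and 0.71 lower, each from 1 array per line and with no test. In Pan02OE, but not in the arrays labelled Pan02KD, the sign also turned for Jak1 (-0.18 in normal and 0.27 in H2O2 medium) and for Stat5b (-0.30 and 0.0017).

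Stat2 encodes the STAT that joins IRF9 in the interferon complex. It read 7.78 and 8.02 in Pan02OE, 7.78 and 7.57 in Pan02OE-CTL, 8.44 and 8.39 in the arrays labelled Pan02KD, and 7.56 and 8.05 in Pan02KD-CTL. Both arrays labelled Pan02KD were above the other 6, and the lowest values were close to the background level of 7.48. The difference between the arrays labelled Pan02KD and Pan02KD-CTL was 0.60 (SE 0.19, 95% interval 0.17 to 1.03), which missed the threshold (limma adjusted p = 0.0703). The same difference passed when the dimmest genes were left out of the test, with an adjusted p of 0.0429 above the 40th percentile of mean signal and 0.0298 among genes above background. Without the H2O2 array of Pan02KD-CTL it was 0.85 (limma adjusted p = 0.0471). In Pan02OE the difference was 0.22 (limma adjusted p = 0.518).

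Set against Pan02OE-CTL, with another technology, Stat2 rose by 0.74 in the arrays labelled Pan02KD (limma adjusted p = 0.049). That call was lost with cyclic loess normalization (0.72, limma adjusted p = 0.0542) and without any 1 of the 6 arrays of Pan02OE, Pan02OE-CTL and Pan02KD, where the difference ran from 0.52 without the H2O2 array of Pan02OE-CTL (limma adjusted p = 0.355) to 0.95 without its normal medium array (limma adjusted p = 0.0818).

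Stat3 encodes the main STAT of the IL-6 family. Stat3 read 10.74 and 10.62 in Pan02OE, 10.94 and 11.11 in Pan02OE-CTL, 10.75 and 10.48 in the arrays labelled Pan02KD, and 10.39 and 10.13 in Pan02KD-CTL. Its arrays did not overlap within either comparison. The differences were -0.34 in Pan02OE (SE 0.17, limma adjusted p = 0.225) and 0.35 in the arrays labelled Pan02KD (SE 0.17, limma adjusted p = 0.222), neither of which passed.

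Between the control lines Stat3 fell by 0.76 from Pan02OE-CTL to Pan02KD-CTL (SE 0.17, limma adjusted p = 0.0126). That call was lost without the H2O2 array of Pan02OE-CTL (-0.57, limma adjusted p = 0.15) and without the H2O2 array of Pan02KD-CTL (-0.67, limma adjusted p = 0.084). The difference of the comparisons for Stat3 was -0.69 (SE 0.24, limma adjusted p = 0.0645). It passed among genes above the 40th percentile (limma adjusted p = 0.0362), among genes above background (limma adjusted p = 0.0243) and with a trended, robust variance (limma adjusted p = 0.0373).

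Stat5a and Stat5b encode close relatives that act below growth hormone, prolactin and the GM-CSF family. The genes lie side by side with Stat3 on chromosome 11, at chr11:100859351-100885169 for Stat5a, chr11:100780731-100859004 for Stat5b and chr11:100886806-100939594 for Stat3 (GRCm38.p6). Stat5a read 9.31 and 9.05 in Pan02OE, 9.31 and 9.61 in Pan02OE-CTL, 9.77 and 10.06 in the arrays labelled Pan02KD, and 9.56 and 9.38 in Pan02KD-CTL. The arrays labelled Pan02KD were the highest, but the difference of 0.44 against Pan02KD-CTL (SE 0.19) did not pass (limma adjusted p = 0.174), nor did -0.28 in Pan02OE (limma adjusted p = 0.392).

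Between the systems, Stat5a fell by 0.73 in Pan02OE against the arrays labelled Pan02KD (limma adjusted p = 0.0235). That call was lost without either array labelled Pan02KD (-0.90 and -0.57, limma adjusted p = 0.0552 and 0.225) and without the H2O2 array of Pan02OE (-0.54, limma adjusted p = 0.216). The difference of the comparisons for Stat5a was -0.72 (SE 0.26, limma adjusted p = 0.0851), and it passed among genes above background (limma adjusted p = 0.0381).

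For Stat5b the 8 values ran from 8.96 to 9.46 and differed by -0.15 in Pan02OE (limma adjusted p = 0.659) and by 0.29 in the arrays labelled Pan02KD (limma adjusted p = 0.341). Stat6, the STAT of IL-4 and IL-13, had 8 values between 12.36 and 12.71. Its difference was 0.20 in each comparison (95% intervals -0.14 to 0.54 and -0.14 to 0.54, limma adjusted p = 0.46 and 0.468), with no overlap between the arrays of a modified line and those of its control.

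Stat4, which is best known from T cells and natural killer cells, was not above background anywhere, with 8 values from 3.90 to 4.43. No fold is given for it, since both groups of every comparison lay in the background range. Of the 9 lymphocyte markers, 8 were likewise below background on all arrays, and Cd4 was above it in all 4 lines without passing the test in either comparison (limma adjusted p = 0.623 and 0.49).

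**Figure D2:**
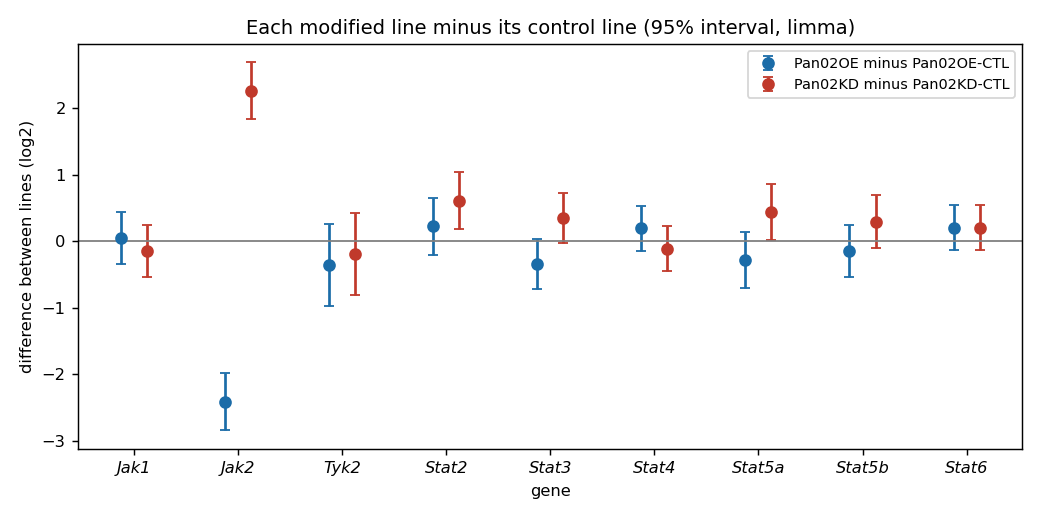
Difference in log2 signal between each modified line and its control line (y axis) for the 9 genes (x axis), with blue for Pan02OE minus Pan02OE-CTL, red for Pan02KD minus Pan02KD-CTL and bars for the 95% interval of the limma fit. Jak2 lies at -2.42 and 2.26, and the other points lie between -0.36 and 0.60.

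Arrays of a modified line and its control did not overlap for 5 of the 9 genes in the overexpression comparison and for 6 of 9 in the knockdown comparison. Over all genes these shares were 56.7% and 51.1%, and 5 and 6 of 9 are near them. Between the control lines 4 of 9 genes separated, against 52.8% of all genes. No gene other than Jak2 had a called step between neighbors in its order of lines.

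Markers of cell state moved in the same comparisons. All 7 epithelial markers above background rose in Pan02OE, for example Cdh1 by 2.13 and Krt7 by 1.91. Among the 8787 genes above background in any line, 13.3% rose in Pan02OE and 11.5% fell in the knockdown comparison. In the arrays labelled Pan02KD, 5 epithelial markers fell, among them Krt19 by 2.66 and Krt7 by 2.09, and Cdh1 rose by 2.37. One of those that fell, Cldn4, was below background in both lines. The summed log2 level of the 10 epithelial markers was 111.0 to 111.3 in Pan02OE, 100.6 to 101.2 in Pan02OE-CTL, 97.6 to 98.5 in the arrays labelled Pan02KD and 103.8 to 105.9 in Pan02KD-CTL. Of 8 fibroblast markers, Dcn rose in the arrays labelled Pan02KD (10.20 and 10.74 against 4.98 and 4.89) and Pdgfrb fell by 1.35 there (line means of 8.23 and 9.59), whereas Col1a1, Col1a2, Col3a1, Lum, Thy1 and Fap were below background. The fibroblast list summed to 42.2 to 43.6 in Pan02OE, 44.9 to 45.1 in Pan02OE-CTL, 50.5 to 50.6 in the arrays labelled Pan02KD and 45.4 to 46.5 in Pan02KD-CTL. Of 7 myeloid markers only Cd14 was above background, and it rose by 1.23 in Pan02OE and fell by 1.35 in the arrays labelled Pan02KD. The part of these shifts in the Jak2 result was not tested.

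The low dose of H2O2 gave no call. In the fit across the 4 lines, 0 of 19505 genes passed an adjusted p under 0.05 by limma, and 1231 genes had an unadjusted p under 0.05 (6.31%). With a trended, robust variance 2 genes passed. None of the 9 genes reached an unadjusted p under 0.05, and their differences ran from -0.12 for Jak2 (95% interval -0.43 to 0.18) to 0.20 for Stat4. The Jak2 interval leaves room for a change of up to about 0.43 in size. Within single lines, with 1 array per medium and no test, no member reached a 2-fold difference, and the largest were Tyk2 in Pan02OE (-0.65), Tyk2 in Pan02KD-CTL (0.54) and Jak2 in Pan02KD-CTL (-0.51). Shares of all genes at 2-fold or more were 0.231% in Pan02OE, 0.169% in Pan02OE-CTL, 0.256% in the arrays labelled Pan02KD and 1.39% in Pan02KD-CTL.

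Set side by side in a single medium, the Jak2 differences were -2.21 in normal medium and -2.62 in H2O2 medium for Pan02OE, and 2.01 and 2.50 for the arrays labelled Pan02KD. It was the sole member at 2-fold or more in each of these 4 contrasts of single arrays, in which 7.44%, 7.58%, 5.64% and 7.27% of all genes were past that limit.

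Jak2 lies on chromosome 19 at chr19:29251803-29313095 (GRCm38.p6), and genes around it were examined next, a step chosen after seeing the data. Within 1 Mb of its start, 23 other genes were measured, of which 13 had a line mean above background. Of these 13, 8 fell and 0 rose in Pan02OE, 0 fell and 8 rose in the knockdown comparison, and 10 fell and 0 rose in Pan02KD-CTL against Pan02OE-CTL. Among the 8787 genes above background anywhere, 18.1% fell in Pan02OE, 14.8% rose in the arrays labelled Pan02KD and 17.8% fell between the control lines. The Pan02OE count stayed between 7 and 10 and the knockdown count between 6 and 9 in every alternative run, the removal of any single array included.

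Ak3, which encodes a mitochondrial adenylate kinase and starts 256.8 kb before Jak2, had the largest difference of the region. It read 9.62 and 9.58 in Pan02OE, 13.76 and 13.70 in Pan02OE-CTL, 11.97 and 12.07 in the arrays labelled Pan02KD, and 9.11 and 9.78 in Pan02KD-CTL. Ak3 fell by 4.13 in Pan02OE (SE 0.20) and rose by 2.58 in the arrays labelled Pan02KD (SE 0.20). Rcl1, a ribosomal RNA processing gene between Ak3 and Jak2, fell by 1.16 and rose by 0.88.

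On the other side, Plgrkt, which encodes a plasminogen receptor, fell by 2.45 in Pan02OE but differed by 0.08 in the arrays labelled Pan02KD (limma adjusted p = 0.825). Cd274, which encodes PD-L1, an immune checkpoint ligand, starts 110.3 kb after Jak2 and read 6.68 and 6.56 in Pan02OE against 8.80 and 8.90 in Pan02OE-CTL. Because the Pan02OE values were below background, its fall was at least 2.59-fold. In the knockdown comparison Cd274 lay below background in both lines. Ermp1, an endoplasmic reticulum peptidase gene 358.1 kb after Jak2, fell by 1.90 in Pan02OE and rose by 1.48 in the arrays labelled Pan02KD, at least 2.62-fold and at least 2.42-fold in view of the background.

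Not every gene of the stretch moved. Ric1, 270.4 kb after Jak2, differed by -0.15 and 0.12, and Ranbp6, 556.3 kb after it, by 0.44 and 0.15, none of which passed. The alarmin gene Il33, 673.3 kb after Jak2, rose by 2.48 in the arrays labelled Pan02KD, whereas its difference of -0.86 in Pan02OE did not pass (limma adjusted p = 0.0773). Glis3, at the edge of the window, fell by 1.95 and rose by 1.08.

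Farther out a smaller share of the genes was called. Within 2 Mb, 8 of 17 genes above background fell and 1 rose in Pan02OE, and within 10 Mb, 20 of 67 fell and 7 rose there, against 4 and 24 in the knockdown comparison. The part of this shared movement of neighbors in the Jak2 result was not tested, and DNA copy number was not analysed here.

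**Figure D3:**
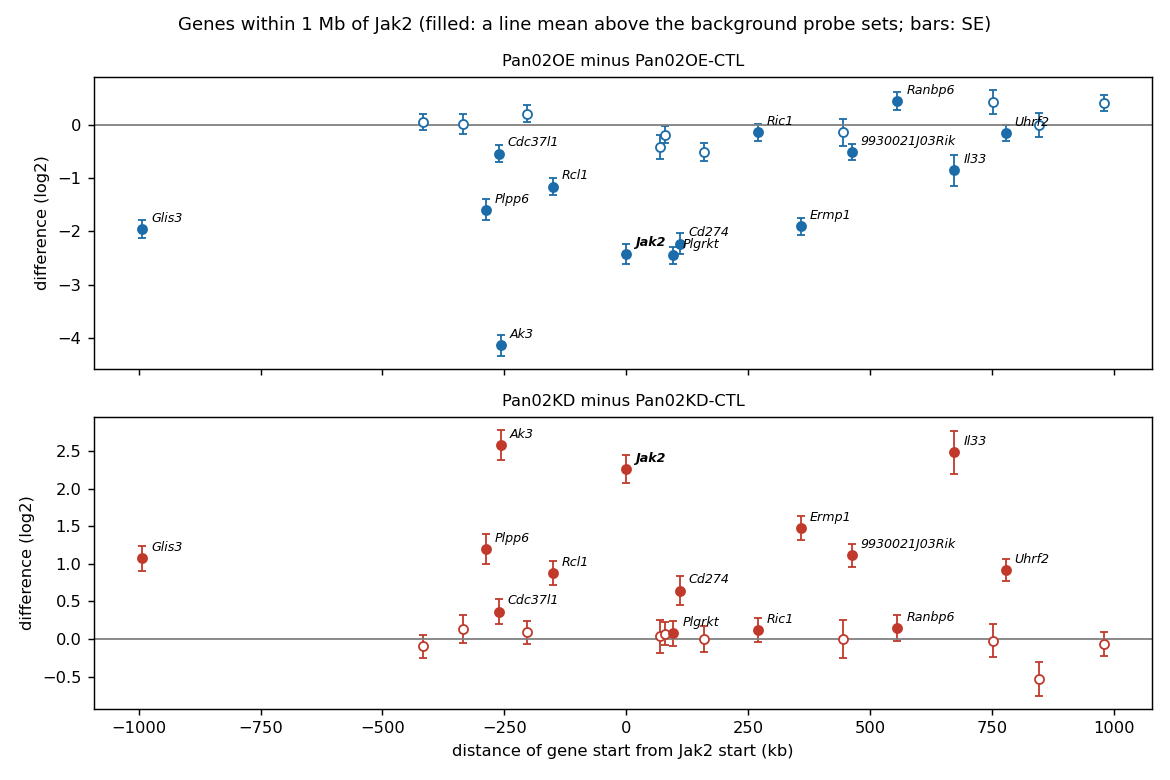
Difference in log2 signal (y axis) of the genes within 1 Mb of Jak2 against the distance of their start from the Jak2 start in kb (x axis), for Pan02OE minus Pan02OE-CTL above and Pan02KD minus Pan02KD-CTL below, with bars for the SE and filled points for genes above background. Ak3 is lowest at -4.13 in the upper panel and highest at 2.58 in the lower one, and Ric1 stays near 0 in both.

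The same windows were counted around other members, and no test set one window against another. Among all 8787 genes above background, 13.3% rose and 18.1% fell in Pan02OE. In the knockdown comparison 14.8% rose and 11.5% fell, and between the control lines 14.2% rose and 17.8% fell. Within 1 Mb of Stat3, 5 of 34 genes above background rose and 8 fell in Pan02OE, against 2 and 6 in the knockdown comparison. Stat5a and Stat5b share that window. Around Stat2, 9 of 44 rose and 4 fell in Pan02OE, and its neighbor Timeless fell by 1.46 while Stat2 was at 0.22. Around Tyk2, 3 of 29 rose and 3 fell in Pan02OE, against 6 and 0 in the knockdown comparison and 1 and 7 in Pan02KD-CTL against Pan02OE-CTL. Within 10 Mb of Tyk2 the calls ran mostly one way, as they did around Jak2. Of 62 genes above background there, 3 rose and 18 fell in Pan02OE, 19 rose and 1 fell in the arrays labelled Pan02KD, and 1 rose and 19 fell between the control lines, although Tyk2 itself passed in none of these. Around Jak1 only 3 genes were above background within 1 Mb, of which 1 rose and 2 fell in Pan02OE, Leprot by 1.17, against 1 and 0 in the knockdown comparison and 0 and 2 between the control lines. The immediate neighbor of Stat3 toward higher coordinates, Cavin1, fell by 0.66 in Pan02OE and by 0.85 in Pan02KD-CTL against Pan02OE-CTL. The next genes on that side did not share this direction. Atp6v0a1 rose by 1.10 and 0.60 in the same comparisons, and Naglu was at -0.33 (not called) and rose by 2.06. Around Stat6, 7 of 40 rose and 2 fell in Pan02OE, against 4 and 3 in the knockdown comparison. Lrp1, a neighbor of Stat6 named with its values known, fell by 2.26 and rose by 2.22 in these comparisons. Stat6 itself passed in neither. Around Stat4 only 4 genes were above background within 1 Mb. Of these, 1 rose and 2 fell in Pan02OE, against 2 and 1 in the knockdown comparison.

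Across the 8 arrays, the gene most like Jak2 was Il6, with a Pearson r of 0.9992 over 9751 genes of above-median signal, followed by Slc25a48 (0.9954), a mitochondrial carrier gene, and Arhgap42 (0.9926). These 3 lie on chromosomes 5, 13 and 9, apart from Jak2. For Stat3 the most alike were Jmjd6 (0.988), Ift57 (0.983) and Rhbdf1 (0.975), for Stat5a Tceanc (0.981), Rasgrf1 (0.957) and Slc9a5 (0.957), and for Stat2 Tmtc4 (0.974), Polr2g (0.960) and Mcts1 (0.941). Among the members themselves the closest pairs with Jak2 were Stat3 (r = 0.876) and Stat5b (r = 0.71). These correlations are descriptions over 8 arrays that fall into 4 lines, so the points are not independent.

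**Figure D4:**
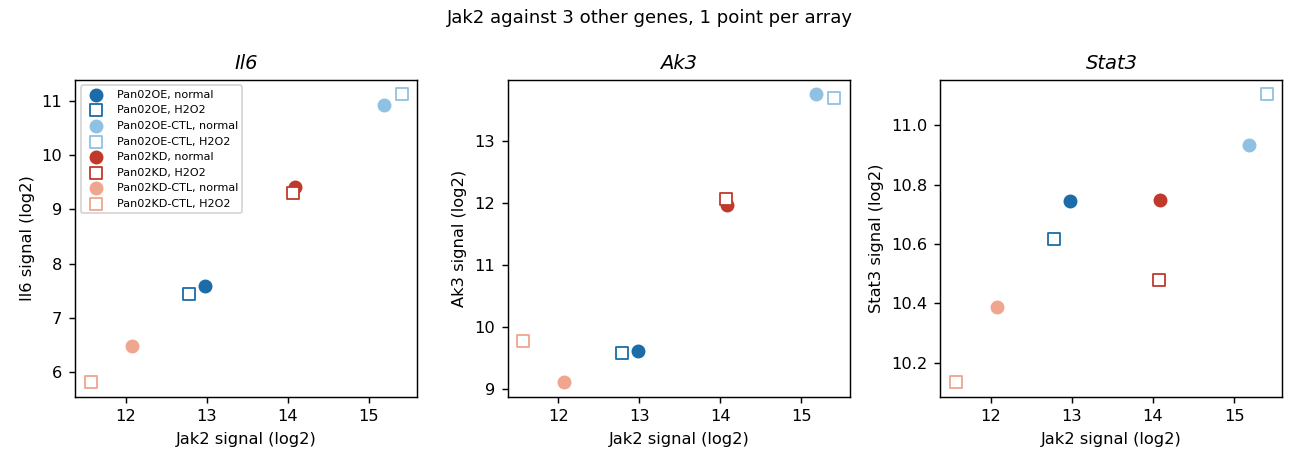
Log2 signal of Il6, Ak3 and Stat3 (y axes) against that of Jak2 (x axis), with 1 point per array, colors for the 4 lines, filled circles for normal medium and open squares for H2O2 medium. Il6 follows the Jak2 order of lines closely (r = 0.9992), although its lowest values are below background. Ak3 puts Pan02OE and Pan02KD-CTL together at the bottom, and Stat3 follows the order loosely (r = 0.876).

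Il6 encodes the cytokine that signals through JAK1, JAK2 and STAT3. It read 7.59 and 7.44 in Pan02OE, 10.92 and 11.12 in Pan02OE-CTL, 9.41 and 9.31 in the arrays labelled Pan02KD, and 6.49 and 5.81 in Pan02KD-CTL. Il6 fell by 3.51 in Pan02OE (SE 0.21, limma adjusted p = 8.73e-06). In the arrays labelled Pan02KD it rose (limma adjusted p = 2.07e-05), by at least 3.67-fold, since Pan02KD-CTL was below background.

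Few of the ligand genes were called. Of 39 measured ligand genes, Il6 included, 8 were above background, 3 rose and 1 fell in Pan02OE, and for the arrays labelled Pan02KD the counts were 1 and 2. Over all genes, 7.02% rose and 9.49% fell in the first comparison and 7.59% rose and 5.97% fell in the second. Among the 8787 genes above background, 13.3% rose and 18.1% fell in the first and 14.8% rose and 11.5% fell in the second. The counts of the lists that follow are to be read beside these shares. Csf2, which encodes GM-CSF, a ligand of the receptors that use JAK2 and STAT5, moved opposite to Il6. It read 10.66 and 9.21 in Pan02KD-CTL against 5.66 and 5.53 in the arrays labelled Pan02KD, at least 5.48-fold lower (limma adjusted p = 7.06e-05). In Pan02OE Csf2 read 8.15 and 6.80 against 5.34 and 5.32 (limma adjusted p = 0.00253), but the means of both lines were within the background range, as were those of Il23a, an IL-23 subunit gene (7.47 and 7.32 against 5.47 and 5.23). Lif, an IL-6 family ligand gene, fell by 0.85 in the arrays labelled Pan02KD.

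Of 37 measured receptor chains, 0 rose and 2 fell in Pan02OE, whereas the arrays labelled Pan02KD had 6 that rose and 2 that fell. Ifnar2, a chain of the type I interferon receptor, read 12.75 and 12.97 in Pan02OE, 13.67 and 13.58 in Pan02OE-CTL, 13.93 and 13.89 in the arrays labelled Pan02KD, and 13.07 and 12.91 in Pan02KD-CTL. It fell by 0.77 in Pan02OE (limma adjusted p = 0.01) and rose by 0.92 in the arrays labelled Pan02KD (limma adjusted p = 0.00516). Il6ra, the IL-6 binding chain, fell by 0.84 in Pan02OE and was at -0.04 in the other comparison. The other chains that rose with the arrays labelled Pan02KD were Il13ra1, Il4ra, Il10rb, Ifngr1 and Osmr, by 0.54 to 0.87, and Osmr lay below background in both lines, as did Il5ra, which fell. Il6st, which encodes the shared gp130 chain of the IL-6 family, was at -0.25 and 0.18 and did not pass.

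Among 19 inhibitor genes, 0 rose and 3 fell in Pan02OE, and the arrays labelled Pan02KD had 1 in each direction. Pias3, which encodes an inhibitor of activated STAT3, read 7.11 and 6.78 in Pan02OE, 8.03 and 8.26 in Pan02OE-CTL, 8.46 and 8.35 in the arrays labelled Pan02KD, and 6.91 and 6.87 in Pan02KD-CTL. It fell in Pan02OE (at least 1.59-fold, limma adjusted p = 0.00141) and rose in the arrays labelled Pan02KD (at least 1.9-fold, limma adjusted p = 0.000574). Sh2b3, which encodes the JAK2-binding inhibitor LNK, fell by 1.56 in Pan02OE and was at 0.01 in the arrays labelled Pan02KD. Cbl, a ubiquitin ligase gene, fell by 0.52 in Pan02OE, and Socs2, a feedback inhibitor below STAT5, fell by 0.69 in the arrays labelled Pan02KD. Socs3, the feedback inhibitor of the IL-6 branch with the GAS match shown above, was at 0.45 and 0.23 and passed in neither comparison (limma adjusted p = 0.302 and 0.642).

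Of 9 adaptors and cofactors, 2 rose and 1 fell in Pan02OE, and the arrays labelled Pan02KD gave the same counts. Stam2, which encodes a JAK-associated adaptor of receptor trafficking, rose by 0.82 and fell by 1.45 in these comparisons. Sh2b1, an activator of JAK2, fell by 0.98 in Pan02OE and rose by 0.61 in the arrays labelled Pan02KD. Irf9, the partner of STAT2, read 8.57 and 9.21 in the arrays labelled Pan02KD against 7.59 and 8.22 in Pan02KD-CTL, a rise of 0.98 (SE 0.19, limma adjusted p = 0.0092), and was at 0.43 in Pan02OE. The coactivator gene Ep300 rose by 0.61 in Pan02OE.

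**Figure D5:**
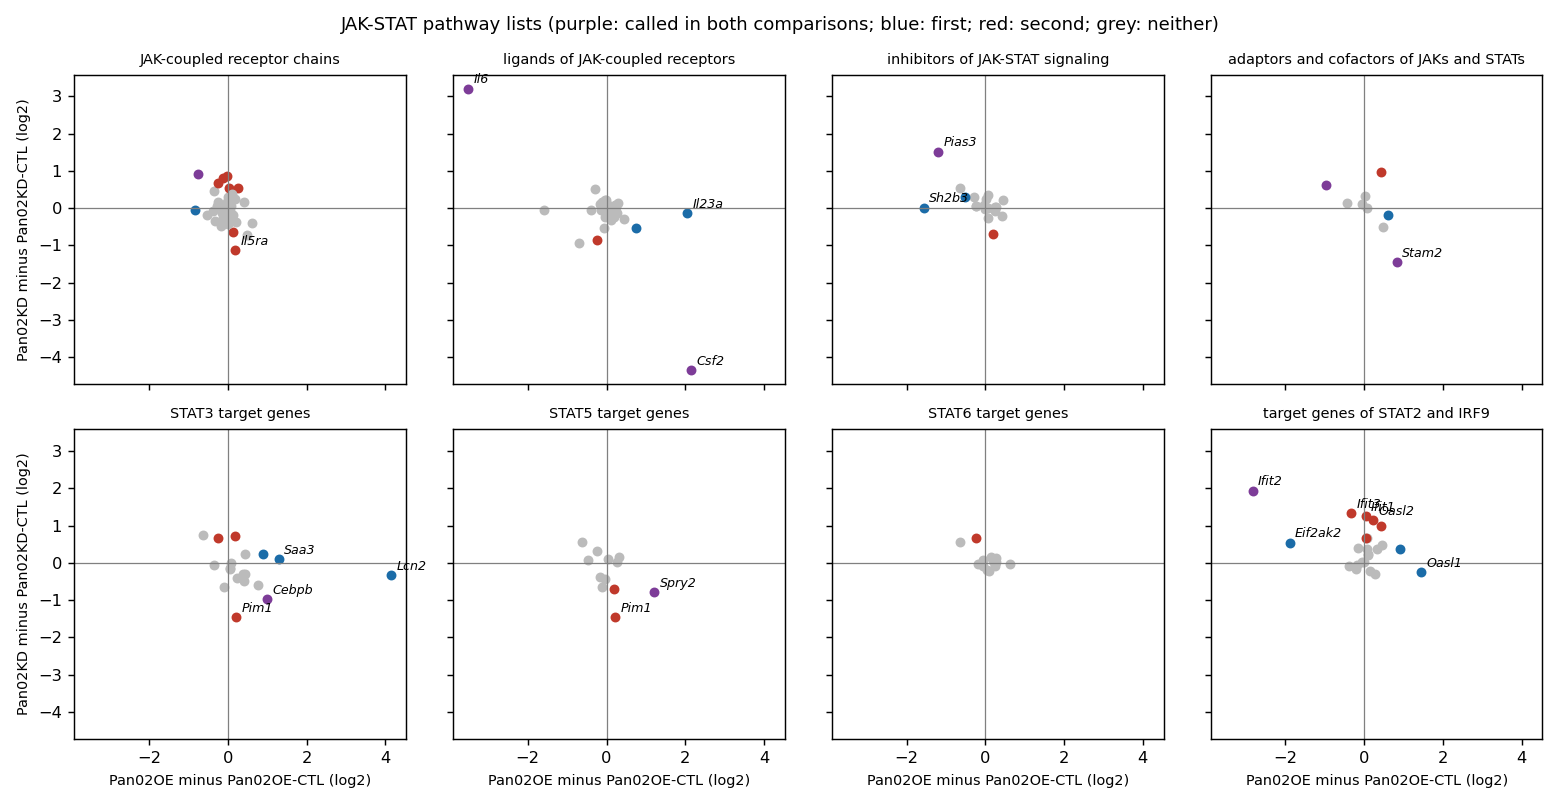
Difference in log2 signal in the arrays labelled Pan02KD against Pan02KD-CTL (y axis) and in Pan02OE against Pan02OE-CTL (x axis), with 1 point per gene and 1 panel for each of 8 pathway lists. Colors mark calls in both comparisons (purple), in the first (blue), in the second (red) or in neither (grey). Il6 (-3.51 and 3.21) and Csf2 (2.15 and -4.34) sit at opposite corners of the ligand panel, and differences against lines below background are as fitted there.

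The list of target genes of STAT2 and IRF9 held 23 measured genes, of which 11 were above background. In the arrays labelled Pan02KD, 6 rose and 0 fell, where 7.59% of all genes and 14.8% of those above background rose. The median difference was 0.37 (0.00 over all genes). One of the 6, Dhx58, was below background in both lines. In Pan02OE, 2 rose and 2 fell, with a median of 0.08 (0.04 over all genes). Ifit2, which encodes an interferon-induced inhibitor of translation, read 7.32 and 7.50 in Pan02OE, 10.26 and 10.23 in Pan02OE-CTL, 10.16 and 10.20 in the arrays labelled Pan02KD, and 7.73 and 8.75 in Pan02KD-CTL. It fell at least 6.79-fold in Pan02OE (limma adjusted p = 7.64e-05) and rose by 1.94 in the arrays labelled Pan02KD (limma adjusted p = 0.00103).

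Ifit3, with the ISRE matches shown above, rose by 1.33 in the arrays labelled Pan02KD, and Ifit1 and Oasl2 rose by 1.26 and 1.14. In Pan02OE these 3 genes did not pass, at -0.33, 0.04 and 0.22. The calls for the list rested on few arrays, since the 6 genes that rose became 2 without the H2O2 array labelled Pan02KD and 3 without the normal medium array of Pan02KD-CTL. Calls over all genes also dropped in this comparison, from 2645 to between 1055 and 2454 without single arrays. Of the 6 genes, 3 lie on chromosome 19 with Jak2, where Ifit2, Ifit3 and Ifit1 start 5.30, 5.33 and 5.39 Mb after it. Eif2ak2, which encodes the kinase PKR, fell by 1.89 in Pan02OE and was at 0.54 in the arrays labelled Pan02KD (limma adjusted p = 0.0829), and Oasl1 rose at least 2.1-fold in Pan02OE.

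Of 19 STAT3 target genes, 4 rose and 0 fell in Pan02OE, and in the knockdown comparison 2 rose and 2 fell. Of the 19, 17 were above background, and among all such genes 13.3% rose and 18.1% fell in Pan02OE. Lcn2, which encodes lipocalin 2, an iron-siderophore binding protein, read 15.47 and 15.72 in Pan02OE, 12.03 and 10.87 in Pan02OE-CTL, 15.64 and 15.35 in the arrays labelled Pan02KD, and 15.73 and 15.92 in Pan02KD-CTL. The 2 arrays of Pan02OE-CTL thus stood apart from the other 6. Lcn2 rose by 4.14 in Pan02OE (SE 0.30, limma adjusted p = 2.72e-05), and Saa3, an acute phase gene, rose at least 1.63-fold. Icam1, another of the 4, was below background in both lines (means of 6.58 and 5.69). Cebpb, a transcription factor gene of the acute phase response, rose by 1.01 in Pan02OE and fell by 0.97 in the arrays labelled Pan02KD. Pim1, a survival kinase gene below both STAT3 and STAT5, fell by 1.45 in the arrays labelled Pan02KD and was at 0.22 in Pan02OE.

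Of 12 STAT5 target genes, 1 rose and 0 fell in Pan02OE, and in the knockdown comparison 0 rose and 3 fell, namely Pim1, Spry2 and Socs2. Spry2, which encodes a brake on receptor tyrosine kinase signaling, rose by 1.22 in Pan02OE and fell by 0.79 in the arrays labelled Pan02KD. Of 14 STAT6 target genes only Il4ra was above background, and it rose by 0.68 in the arrays labelled Pan02KD. With the medium as contrast, no gene of any of the 8 lists was called.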

How the data were processed

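RNA of the transduced Pan02 lines was hybridized to Clariom S mouse arrays, and 8 arrays were used. The deposited values are log2 signals per probe set, produced by the authors with the Transcriptome Analysis Console, the version and settings of which are not given in the sources used here. Array medians over the named genes were 6.51 to 6.58. A column for a control RNA held no values and was not used (1 column). Of 28846 probe sets, 6640 were controls, and 19572 carried a gene symbol in the platform annotation, for 19505 genes. The probe set with the highest mean stood for a gene.

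Differences were fitted with limma 3.58.1 in R 4.3.3 (lmFit, contrasts.fit, eBayes) on the 8 arrays together, with a term for the line and 1 for the medium (3 residual degrees of freedom, prior 6.2), and p-values were adjusted by Benjamini-Hochberg over all 19505 genes at a threshold of 0.05. Background was the highest of 23 antigenomic probe sets (7.48). "At least" folds set the brighter line against it. The procedure was tested on simulated data. Promoters and coordinates come from RefSeq (GRCm38.p6). The 9 genes and the pathway lists were chosen with earlier results of these data known. Named list genes are the 4 with the largest called difference per list in either comparison of a modified line with its control. The 3 genes most like a called member were also named. Of its 3 measured neighbors on each side only some were named, with their values known. Those of Jak2 left out above, 1700018L02Rik, Insl6 and Rln1, lay below background in all lines. Other genes near Jak2 and other list genes, such as Socs3, Il6st, Ifit1 and Oasl2, were named after their values were seen. Alternatives changed the normalization, filter, probe set choice, variance model, medium term and arrays in the fit. The number of arrays limits the precision.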

Additional observations from a re-analysis of the deposited data

Results flagged for a closer look

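Jak2 moved in opposite directions in the modified lines relative to their controls, and the difference of these differences was tested. It fell by 2.42 in Pan02OE and rose by 2.26 in the arrays labelled Pan02KD, which gave a difference of -4.67 on the log2 scale (SE 0.27, limma adjusted p = 4.17e-06), with both arrays of each modified line beyond both arrays of its control. In 15 alternatives the value lay between -4.93 and -4.42 and passed in each. Nlrx1 was not lower in the arrays labelled Pan02KD, and Jak2 fell by 3.48 from Pan02OE-CTL to Pan02KD-CTL, between the control lines themselves.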

How the results depend on the processing

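The Jak2 calls in both main comparisons held in all 16 alternatives each (-2.65 to -2.19 and 2.00 to 2.51). Members called in the knockdown comparison rose from 1 to 2 (Jak2 and Stat2) with genes above the 40th percentile or above background, and ranged from 1 to 2 without single arrays. In the difference of the comparisons the count of 1 became 2 above the 40th percentile, 3 above background and 2 with a trended, robust variance. Against Pan02OE-CTL, members called in the arrays labelled Pan02KD went from 2 to 1 with cyclic loess and from 0 to 2 without single arrays, and between the control lines and between Pan02OE and the arrays labelled Pan02KD from 1 to 2. For Pan02OE against Pan02KD-CTL it was 0 to 1. At a 1.5-fold limit in a single medium the counts of members were 2 in the knockdown comparison in normal medium, 2 and 3 in the overexpression and knockdown comparisons in H2O2 medium, and 1 (Tyk2) for H2O2 in Pan02OE. The shares of all genes under these changed settings are not given here, so the counts say nothing particular about the members. Signs that turned without single arrays concerned differences that passed nowhere: Jak1 in Pan02OE (-0.16 to 0.25), Tyk2 in Pan02OE (-0.74 to 0.021), Stat5b in Pan02OE (-0.36 to 0.063), Tyk2 in the arrays labelled Pan02KD (-0.61 to 0.22) and Jak2 for H2O2 (-0.24 to 0.0026).

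Without single arrays, genes called ranged from 1724 to 3588 in Pan02OE against its control, from 1055 to 2454 in the knockdown comparison, from 3016 to 4345 in their difference, from 1704 to 3074 between the controls, from 1827 to 3888 between Pan02OE and the arrays labelled Pan02KD, from 315 to 1271 for Pan02OE against Pan02KD-CTL, from 513 to 1688 for the arrays labelled Pan02KD against Pan02OE-CTL and from 0 to 1 for H2O2. For Pan02OE against Pan02KD-CTL the 1243 genes became 1999 above background, 2006 with a trended, robust variance and 799 in a fit of the 4 arrays compared. For the arrays labelled Pan02KD against Pan02OE-CTL the 1488 became 2267 with that variance. The causes were not tested. The mean over probe sets could not change a member, as each had 1. The medium term paired the arrays of different lines from the same medium, and without it the members called in each comparison of lines were as many as with it. A block by replicate number could not be fitted, since the labels give no such numbers. Values below 7.48 are limited by background.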
